A study of Mus musculus with 15 samples.

Results

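The 10 genes described here carry out or control de novo fatty acid synthesis, the making of fatty acids from carbohydrate carbon. Their mRNAs were counted by RNA-Seq of the whole aorta in WT C57BL/6 male mice (C57BL/6J in the study's methods) aged 10 months. The 10 were taken from the count tables by symbol and are Acly and Me1, which supply carbon and reducing power, Acaca and Fasn, which build palmitate, Elovl6, Scd1 and Scd2, which lengthen and desaturate it, and the regulators Srebf1, Mlxipl and Thrsp. All 10 were found among the 24982 gene symbols of the count tables, and all 10 were among the 14121 genes with enough counts to be tested. Every mouse received Aldo-salt, that is, aldosterone at 200 µg/kg/d from an osmotic minipump with 0.9% NaCl and 0.2% KCl in the drinking water, and aortas were taken at day 7. There were 3 groups of 5 libraries: a control group with a sham operation, a group with orchiectomy alone, and a group with orchiectomy and a pellet of dihydrotestosterone (DHT), an androgen that cannot be turned into estrogen. Surgery preceded Aldo-salt by 2 weeks. The comparisons ask what loss of testicular androgen, and its replacement, did to the aortic transcriptome under Aldo-salt. No group without Aldo-salt and no sham-operated group with DHT was analysed here, and the labels do not say whether a library held 1 aorta, so P values measure the spread between these libraries only.

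In de novo lipogenesis, cytosolic citrate is cleaved to acetyl-CoA, which is carboxylated to malonyl-CoA and then condensed into palmitate at the expense of NADPH. The pathway is most active in liver and fat, where insulin acts on it through SREBP-1c, the product of Srebf1, and glucose acts through ChREBP, the product of Mlxipl. The aorta is wrapped in perivascular adipose tissue that in the thorax resembles brown fat, so a whole-aorta library holds RNA of adipocytes beside that of the vessel wall.

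Reads assigned to genes numbered 8268957 to 13816864 per library, and the 3 groups overlapped in depth. The labelled tissue was borne out by smooth muscle markers (6 of 6 tested, at a mean log2 CPM of 9.62 or more in every library, CPM being counts scaled to the size of the library), and the libraries also held brown fat RNA, with Ucp1 at 488 to 2831 CPM. None of 4 hepatocyte markers had enough counts to be tested, Alb reaching 293 counts at most. One orchiectomized library, replicate 2, stood apart from the rest, its highest correlation with any other library being 0.910 against 0.971 or more for every control and DHT library. No 2 libraries of the same group agreed within sampling noise.

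Reference promoters are shown first, because 8 of the 10 genes have an entry in the RefSeq-derived promoter table (build GRCm38.p6) and because these genes moved together in the libraries. Each window holds the 250 bases before a transcription start and is printed 5′ to 3′ on the strand of the gene, with capitals marking any of 5 motifs searched on both strands: an SREBP element TCACNCCAC, the NF-Y box CCAAT, the GC box GGGCGG bound by Sp1, the E-box CACGTG, and the androgen receptor half-site AGAACA. The Fasn window (chr11:120824548-120824797, minus strand) and the Thrsp window (chr7:97417551-97417800, minus strand) are shown for their paired NF-Y boxes, the Acly window (chr11:100528001-100528250, minus strand) for its GC boxes, and the windows of both Mlxipl starts (chr5:135089640-135089889 and chr5:135106641-135106890, plus strand) because Mlxipl had the largest fold difference of the 10 genes between orchiectomized and control libraries.
Fasn: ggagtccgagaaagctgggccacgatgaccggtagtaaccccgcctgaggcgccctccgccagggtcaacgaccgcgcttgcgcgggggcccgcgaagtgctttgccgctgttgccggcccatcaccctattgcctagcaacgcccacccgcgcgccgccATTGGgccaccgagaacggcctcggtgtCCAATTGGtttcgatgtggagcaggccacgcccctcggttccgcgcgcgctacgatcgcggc
Thrsp: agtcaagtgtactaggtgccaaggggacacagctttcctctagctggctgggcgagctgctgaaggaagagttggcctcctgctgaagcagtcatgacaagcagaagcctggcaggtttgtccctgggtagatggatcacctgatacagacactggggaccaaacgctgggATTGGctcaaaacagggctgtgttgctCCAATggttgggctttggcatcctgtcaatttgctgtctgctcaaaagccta
Acly: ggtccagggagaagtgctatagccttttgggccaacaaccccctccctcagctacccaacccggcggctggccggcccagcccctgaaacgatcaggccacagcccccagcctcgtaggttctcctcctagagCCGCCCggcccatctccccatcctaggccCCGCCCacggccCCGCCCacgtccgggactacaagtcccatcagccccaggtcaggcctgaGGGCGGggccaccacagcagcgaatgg
Mlxipl, upstream start: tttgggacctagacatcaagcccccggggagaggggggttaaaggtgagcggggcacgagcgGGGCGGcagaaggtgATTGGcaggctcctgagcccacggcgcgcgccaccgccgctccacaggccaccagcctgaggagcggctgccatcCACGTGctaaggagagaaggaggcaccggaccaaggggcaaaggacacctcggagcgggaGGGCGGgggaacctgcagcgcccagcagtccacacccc
Mlxipl, downstream start: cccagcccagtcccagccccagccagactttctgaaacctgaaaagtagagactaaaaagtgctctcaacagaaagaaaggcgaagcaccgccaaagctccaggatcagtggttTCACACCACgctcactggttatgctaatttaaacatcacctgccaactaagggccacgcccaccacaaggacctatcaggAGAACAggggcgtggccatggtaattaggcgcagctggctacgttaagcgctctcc

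Fasn had 3 NF-Y boxes, the first beginning 90 bases before the start and the other two, on opposite strands, sharing 2 bases within the run CCAATTGG. Thrsp had 2 NF-Y boxes, 79 and 52 bases before its start. Acly had 4 GC boxes between 117 and 22 bases before its start and no NF-Y box. At the upstream Mlxipl start the window held an E-box 98 bases before the start with 1 NF-Y box and 2 GC boxes, and at the downstream start it held the only SREBP element among the 12 windows of these genes, 136 bases before the start, together with 1 androgen receptor half-site. Over the 12 windows of the 8 genes, the NF-Y box was found in 6, against 33.8% of all 32851 promoters in the table. The GC box was found in 5 windows (32.7% of all promoters), the androgen receptor half-site in 2, of Acaca and Mlxipl (16.1%), and the E-box and the SREBP element in 1 each (6.02% and 1.05%). These matches describe letters in a window and say nothing about binding. Scd1 and Scd2 had no entry. They lie 100.8 kb apart on chromosome 19 (Scd1 at 44394455 to 44407879 and Scd2 at 44293674 to 44306864, GRCm38) and are close paralogs, so reads in the stretches they share could have been divided between them.

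Per kilobase of annotated exon sequence, the control libraries placed the 10 genes in the order Scd1 (1816 ± 748 CPM per kb, mean ± SD, n = 5), Thrsp (859.5 ± 470.4), Fasn (663 ± 325), Acly (330.0 ± 188), Me1 (188 ± 118), Acaca (126 ± 64.1), Elovl6 (98.3 ± 57.4), Scd2 (86.6 ± 26.6), Srebf1 (58.4 ± 12.04) and Mlxipl (39.4 ± 21.9). Within the single control libraries each gene exceeded the next one in this order in 5 of 5 libraries, except Elovl6 against Scd2 (3 of 5) and Srebf1 against Mlxipl (4 of 5), the neighbors whose order was not kept. Adipoq, the adipocyte hormone adiponectin, stood at 295 ± 98.0 CPM per kb on the same scale. Together the 10 genes took 0.937% to 3.32% of all gene counts in control libraries, 0.566% to 1.24% in orchiectomized libraries and 1.19% to 2.97% in DHT libraries. The highest orchiectomized library thus lay within the lower part of the range of the other 2 groups.

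Acly, the ATP citrate lyase that makes cytosolic acetyl-CoA, was at 1765, 1112, 2898, 635 and 1198 CPM in control replicates 1 to 5, at 554, 305, 334, 788 and 805 in orchiectomized replicates 1 to 5, and at 808, 787, 1119, 2400.4 and 967 in DHT replicates 1 to 5. Control 4 and DHT 2 lay within the orchiectomized range. For Me1, the cytosolic malic enzyme that yields NADPH, the values in the same order were 777, 489, 1372, 281 and 477 CPM, 345, 227, 189.9, 360.1 and 378 CPM, and 431, 454, 747, 1036 and 552 CPM. Every DHT library exceeded every orchiectomized library, whereas control 4 lay inside the orchiectomized range.

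Acaca, acetyl-CoA carboxylase 1, which forms malonyl-CoA, was at 1377, 852, 2114, 495 and 1148 CPM in control, 399, 243, 317, 636 and 568 CPM in orchiectomized and 603, 539, 839, 1956 and 987 CPM in DHT libraries. Fasn, the fatty acid synthase that builds palmitate, was at 8480.1, 5174, 11149.7, 2611 and 5885 CPM in control, 2298, 1339, 1552, 3876 and 3474 CPM in orchiectomized and 3420.1, 3029.9, 4841, 11668 and 6011 CPM in DHT libraries. For both genes control 4, DHT 1 and DHT 2 fell within the orchiectomized range, and DHT 4 was the highest DHT library.

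Elovl6, the elongase that turns palmitate into stearate, was at 782, 419, 1109, 199 and 504 CPM in control, 299.6, 110.1, 151, 332 and 307 CPM in orchiectomized and 305, 306, 639, 1002 and 469 CPM in DHT libraries. Scd1, the main stearoyl-CoA desaturase of fat and liver, was at 10823, 6469, 12863, 3800.4 and 9912 CPM in control, 2994, 2249.8, 2764, 4542 and 3510.5 CPM in orchiectomized and 5449, 5058, 6848, 10645 and 3774 CPM in DHT libraries. Scd2, its paralog expressed in many tissues, was at 457, 385, 727, 401 and 391.5 CPM in control, 296, 296, 252.3, 304 and 387 CPM in orchiectomized and 322, 430.4, 506, 540.1 and 405 CPM in DHT libraries. Scd1 and Scd2 each had a single orchiectomized library inside the control range, replicate 4 and replicate 5, respectively.

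Srebf1, which encodes SREBP-1, had 308, 236, 300.0, 185 and 227 CPM in control, 186, 159, 144, 205 and 199.8 CPM in orchiectomized and 185, 223, 254, 315 and 246 CPM in DHT libraries. Mlxipl, which encodes ChREBP, had 157, 87.7, 269, 66.1 and 134 CPM in control, 39.6, 29.3, 31.0, 65.3 and 55.3 CPM in orchiectomized and 66.8, 61.7, 95.6, 241 and 133 CPM in DHT libraries. Thrsp, the lipogenic protein Spot 14, had 1469.5, 765, 1934, 424 and 895 CPM in control, 703, 394, 250.2, 705 and 745 CPM in orchiectomized and 765, 835, 1739, 1619 and 1368 CPM in DHT libraries. Mlxipl was the only one of the 10 genes whose control and orchiectomized libraries did not overlap, by a margin of less than 1 CPM, and Thrsp joined Me1 in having no overlap between DHT and orchiectomized libraries.

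**Figure D1:**
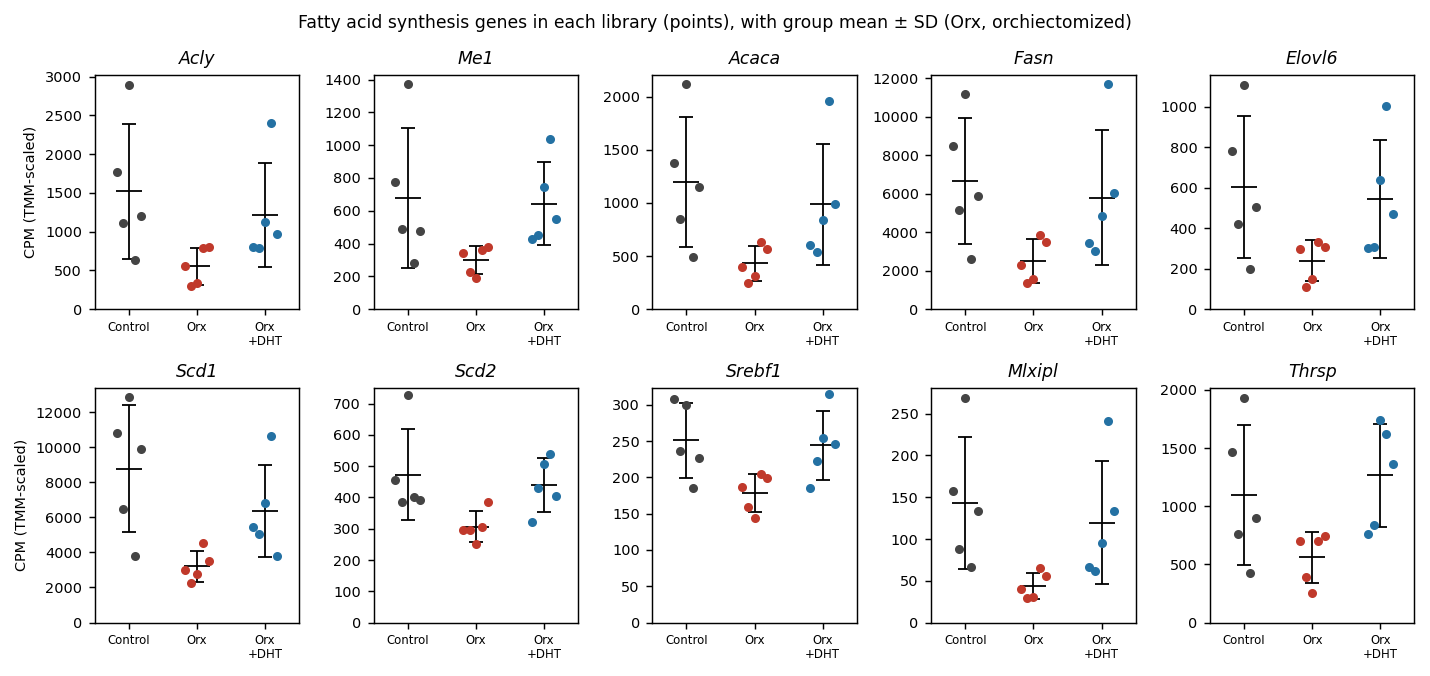
CPM (TMM-scaled, linear axes from 0) of the 10 genes in each of the 5 control, 5 orchiectomized (Orx) and 5 DHT libraries (points), with the group mean (bar) and SD (whiskers). Mlxipl averaged 143 CPM in control, 44.1 CPM in orchiectomized and 120 CPM in DHT libraries, and the orchiectomized libraries had the smallest SD of the 3 groups for each of the 10 genes.

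Most of these mRNAs were less abundant in orchiectomized than in control mice. The group fit called 8 of the 10 genes lower in orchiectomized than in control libraries at an unadjusted P under 0.01, against 1.13% of all tested genes called lower, and all 10 had a P under 0.05, as 4.59% of all genes had in this direction. The 10 genes were chosen with earlier results of these data known, so such shares, here and below, describe them and are no independent support. The largest differences were those of Mlxipl (3.23-fold lower), Acaca (2.77-fold), Scd1 (2.73-fold) and Acly (2.73-fold), and the smallest those of Scd2 (1.54-fold) and Srebf1 (1.41-fold). None of the 10, and none of all tested genes, passed an adjusted P of 0.05 in edgeR's quasi-likelihood test, where 454 of all genes had an unadjusted P under 0.01. DESeq2 gave an adjusted P under 0.05 for 4 of the 10 (Acly, Acaca, Scd1 and Mlxipl) and for 131 of all genes. In bulk libraries, fewer adipocytes and less of these mRNAs per adipocyte cannot be told apart from such values.

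By role, Acly was at 1521 ± 868 CPM (SD, n = 5) in control and 557 ± 239 CPM in orchiectomized libraries, a log2 fold change of −1.45 ± 0.43 (SE, adjusted P = 0.285), and Me1 had −1.18 ± 0.38 (adjusted P = 0.297). Palmitate synthesis genes moved by similar amounts, with a log2 fold change of −1.47 ± 0.41 for Acaca (adjusted P = 0.276) and −1.41 ± 0.44 for Fasn (adjusted P = 0.291). Scd1 had the smallest P of the 10, with 8773 ± 3615 CPM in control, 3212 ± 871 CPM in orchiectomized libraries and a log2 fold change of −1.45 ± 0.33 (adjusted P = 0.239). Its paralog Scd2 had −0.62 ± 0.19 (adjusted P = 0.288), and Elovl6, at −1.33 ± 0.46, did not pass the threshold (adjusted P = 0.315). Among the regulators, Mlxipl had a log2 fold change of −1.69 ± 0.42 (adjusted P = 0.244) and Srebf1 −0.49 ± 0.17 (adjusted P = 0.308), while Thrsp, at −0.97 ± 0.40, had adjusted P = 0.372. Mlxipl libraries did not overlap between the groups, as was the case for 0.517% of all tested genes in this direction. The count of 8 rested on single libraries: it was 2 without control 3, 3 without orchiectomized 3, 4 without orchiectomized 2, 5 without control 1 and 10 without control 4. Scd1 and Mlxipl kept a P under 0.01 in all 15 fits that left out 1 library.

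All 10 genes had a higher mean level in DHT-treated than in untreated orchiectomized mice, and 3 of them passed the threshold. The fit called Mlxipl (2.71-fold higher), Thrsp (2.26-fold) and Scd1 (1.98-fold) higher in DHT than in orchiectomized libraries at a P under 0.01, 3 of 10 against 2.46% of all tested genes called higher. All 10 genes had a P under 0.05, against 7.32% of all genes, and none an adjusted P under 0.05, which 0.921% of all genes had in this direction. The log2 fold change was 1.44 ± 0.42 for Mlxipl (adjusted P = 0.0646), 1.18 ± 0.40 for Thrsp (adjusted P = 0.102) and 0.98 ± 0.33 for Scd1 (adjusted P = 0.0993). Me1 did not pass, with 300.0 ± 85.2 CPM in orchiectomized and 644 ± 252.3 CPM in DHT libraries and adjusted P = 0.103. Fasn was at 2508 ± 1132 and 5794 ± 3490.5 CPM (adjusted P = 0.124), Acaca at 432 ± 166 and 985 ± 572 CPM (adjusted P = 0.108), and Acly at 557 ± 239 and 1216 ± 675 CPM (adjusted P = 0.136). Adjusted P values were 0.146 for Elovl6, 0.128 for Scd2 and 0.125 for Srebf1, the last having the smallest log2 fold change of the 10 at 0.45 ± 0.17.

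The groups of Me1 and Thrsp did not overlap, as for 2.09% of all tested genes in this direction. DESeq2 called all 10 genes at a P under 0.01, with 1708 of all 14121 genes in either direction, and gave 6 of the 10 (Me1, Acaca, Fasn, Scd1, Mlxipl and Thrsp) an adjusted P under 0.05, with 1285 of all genes. In edgeR the count of 3 became 0 without orchiectomized 2, orchiectomized 3 or DHT 4, 1 without control 1, 2 or 5, orchiectomized 1 or DHT 3, 6 without orchiectomized 4, DHT 1 or DHT 2, and 7 without control 3 or 4. The direction was the same for every gene in all 15 of those fits. Because both comparisons use the same 5 orchiectomized libraries, a low draw of that group would lower these genes in the one and raise them in the other, and the 2 sets of values are given side by side without a test of their likeness.

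Between DHT and control libraries, none of the 10 genes was called, and none had a P under 0.05, against 6.52% of all genes on the lower and 5.31% on the higher side. Of all tested genes, 2.01% were called lower and 1.52% higher. The log2 fold changes ran from −0.47 (Scd1) to 0.20 (Thrsp), and 9 of 10 were below 0. The 95% intervals were wide, at −1.18 to 0.25 for Scd1, −1.14 to 0.74 for Fasn, −1.15 to 0.64 for Mlxipl and −0.65 to 1.06 for Thrsp, and narrower for Scd2 (−0.52 to 0.32) and Srebf1 (−0.40 to 0.32). A P above the threshold does not show that these groups were alike. The median log2 fold change over the 10 genes was −1.37 for orchiectomized against control, 1.15 for DHT against orchiectomized and −0.17 for DHT against control libraries, where the median over all tested genes was 0.037, −0.022 and −0.0029.

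**Figure D2:**
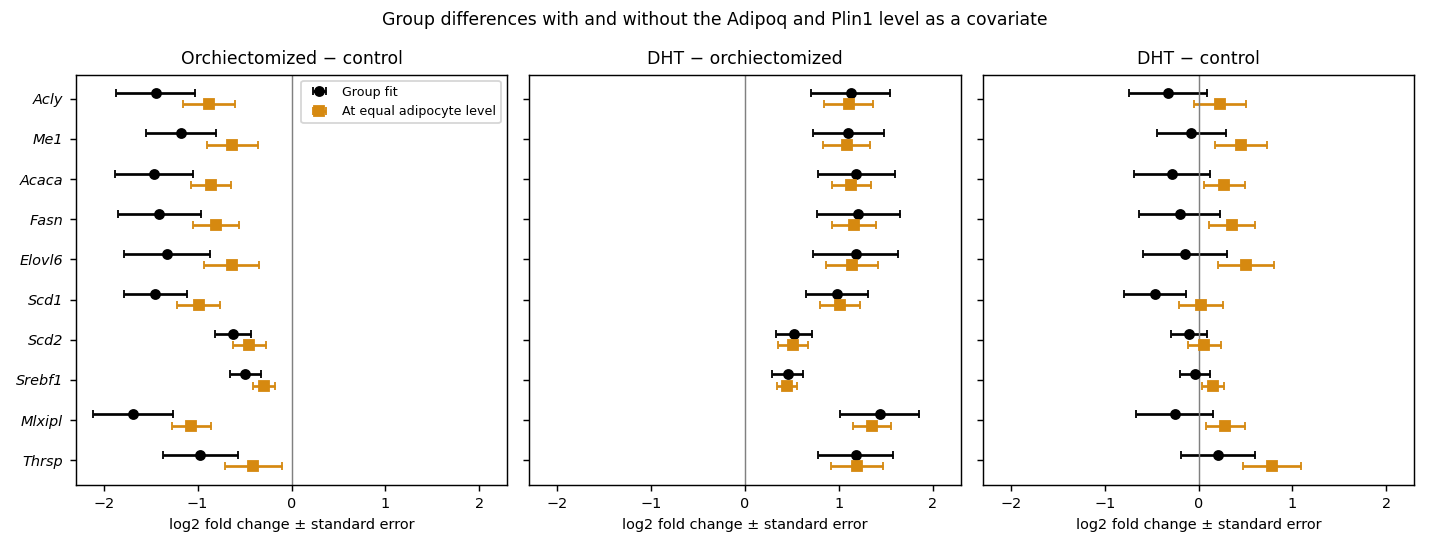
Log2 fold change (horizontal axis) with its standard error for each of the 10 genes in the 3 comparisons, from the fit with the groups alone (black circles) and from the fit that also holds the adipocyte level, the mean log2 CPM of Adipoq and Plin1, as a covariate (orange squares). With the covariate the differences between orchiectomized and control libraries shrink toward 0 (Mlxipl from −1.69 to −1.07), those between DHT and orchiectomized libraries hardly move while their errors narrow, and those between DHT and control libraries shift upward.

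Adipocyte content was read from Adipoq and Plin1, the latter encoding the lipid droplet coat protein perilipin 1. The mean of their log2 CPM, called the adipocyte level here, ran from 7.65 to 9.07 in control, 7.86 to 8.72 in orchiectomized and 7.45 to 8.77 in DHT libraries, and the groups overlapped. Orchiectomized libraries averaged −0.42 relative to control on this log2 scale (exact permutation test, two-sided, P = 0.214) and DHT libraries −0.018 relative to orchiectomized ones (P = 0.952). The 2 reference genes did not move together, however. The values of Adipoq were 401, 304, 469, 207 and 522 CPM in control, 312, 364, 262, 500.2 and 338 CPM in orchiectomized and 191, 283, 307, 369 and 354 CPM in DHT libraries, a log2 fold change of −0.099 ± 0.25 with orchiectomy (adjusted P = 0.9). Plin1 was at 471, 302, 598, 195 and 555 CPM, 219, 161, 206, 356 and 234 CPM and 159.9, 201, 243, 515 and 310.1 CPM, with −0.85 ± 0.34 (adjusted P = 0.367). Adipoq relative to Plin1 was between −0.35 and 0.089 log2 units in control libraries and between 0.35 and 1.17 in orchiectomized libraries, without overlap (exact permutation P = 0.0079, the smallest that 5 against 5 allows). Relative to Plin1 the lipogenic genes therefore differed less between these groups than relative to Adipoq, and which of the 2 genes follows adipocyte number was not tested.

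**Figure D3:**
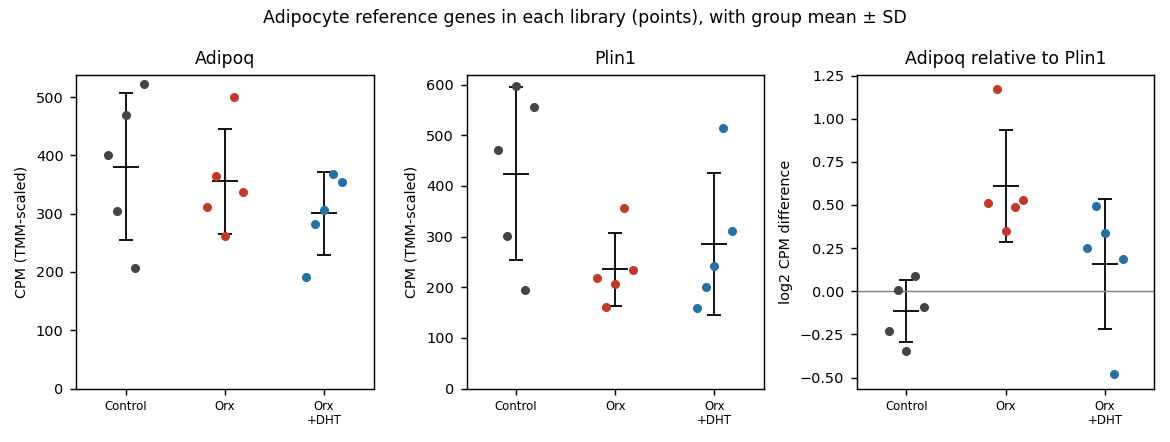
Adipoq and Plin1 in CPM (left and middle, axes from 0) and the difference of their log2 CPM (right) in each library of the 3 groups (points), with group mean and SD. Adipoq relative to Plin1 lies between 0.35 and 1.17 in the 5 orchiectomized (Orx) libraries and between −0.35 and 0.089 in the 5 controls.

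The lipogenic genes followed the adipocyte level across libraries. In the fit with groups and adipocyte level, the slope of log2 expression on that level was between 0.37 ± 0.15 (Scd2) and 1.36 ± 0.26 (Elovl6), and it was above 1 for 7 genes. It had an adjusted P under 0.05 for 9 of 10 genes, against 7.7% of all tested genes with a positive slope. Fasn had a slope of 1.33 ± 0.22, Mlxipl 1.30 ± 0.18 and Acaca 1.27 ± 0.19, whereas Srebf1 had 0.45 ± 0.10 and Scd2 did not pass (adjusted P = 0.153).

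At equal adipocyte level, 5 of 10 genes were lower in orchiectomized than in control libraries at a P under 0.01, against 0.645% of all genes called lower, and 9 had a P under 0.05 (2.3% of all genes). They were Mlxipl (log2 fold change −1.07 ± 0.21, adjusted P = 0.196), Scd1 (−0.99 ± 0.23, adjusted P = 0.311), Acaca (−0.86 ± 0.22, adjusted P = 0.378), Fasn (−0.81 ± 0.25, adjusted P = 0.466) and Acly (−0.88 ± 0.28, adjusted P = 0.501). Thrsp was the gene without a P under 0.05 (−0.41 ± 0.30, adjusted P = 0.754). No gene, of the 10 or of all tested, had an adjusted P under 0.05 in edgeR's test, and 246 of all genes had an unadjusted P under 0.01. The choice of reference set the count: it was 9 with Adipoq alone and 2 with Plin1 alone, and 2 with the mean of 10 other adipocyte markers. It was 3 without control 1, 2, 3 or 4 or without orchiectomized 3 or 4, and 8 without control 5. Mlxipl, Scd1 and Acaca kept a P under 0.01 in all 15 fits without 1 library.

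Between DHT and orchiectomized libraries, all 10 genes were higher at equal adipocyte level at a P under 0.01, against 4.42% of all genes called higher. For 9 of them the adjusted P in edgeR's quasi-likelihood test was under 0.05, against 2.9% of all genes in this direction. The log2 fold change was 1.35 ± 0.20 for Mlxipl (adjusted P = 0.00406), 1.13 ± 0.21 for Acaca (adjusted P = 0.00873), 1.16 ± 0.23 for Fasn (adjusted P = 0.0128) and 1.01 ± 0.21 for Scd1 (adjusted P = 0.0145). Supply genes had 1.11 ± 0.26 (Acly) and 1.08 ± 0.25 (Me1), the elongase Elovl6 had 1.14 ± 0.28, and Thrsp had 1.19 ± 0.28. Srebf1 differed by less, at 0.45 ± 0.11 (adjusted P = 0.0248), and Scd2, at 0.51 ± 0.16, was the exception (adjusted P = 0.0657). The count was 9 or 10 without any 1 library, 10 with Adipoq alone, 9 with Plin1 alone and 6 with the 10 other adipocyte markers as reference. These fold changes barely differ from those without the covariate, and standard errors narrowed, from 0.44 to 0.23 for Fasn. The adipocyte level was alike in these groups while its 2 genes were not: Adipoq relative to Plin1 differed by −0.45 log2 units between DHT and orchiectomized libraries (exact permutation P = 0.0238, groups overlapping), and the mean of the 10 other adipocyte markers by 0.26 (exact permutation P = 0.317).

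DHT and control libraries did not differ by call for any of the 10 genes at equal adipocyte level, where 1.44% of all genes were called higher and 2.39% lower. Thrsp had the largest value, a log2 fold change of 0.79 ± 0.31 (adjusted P = 0.322), and the other 9 were between 0.022 (Scd1) and 0.50 (Elovl6).

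**Figure D4:**
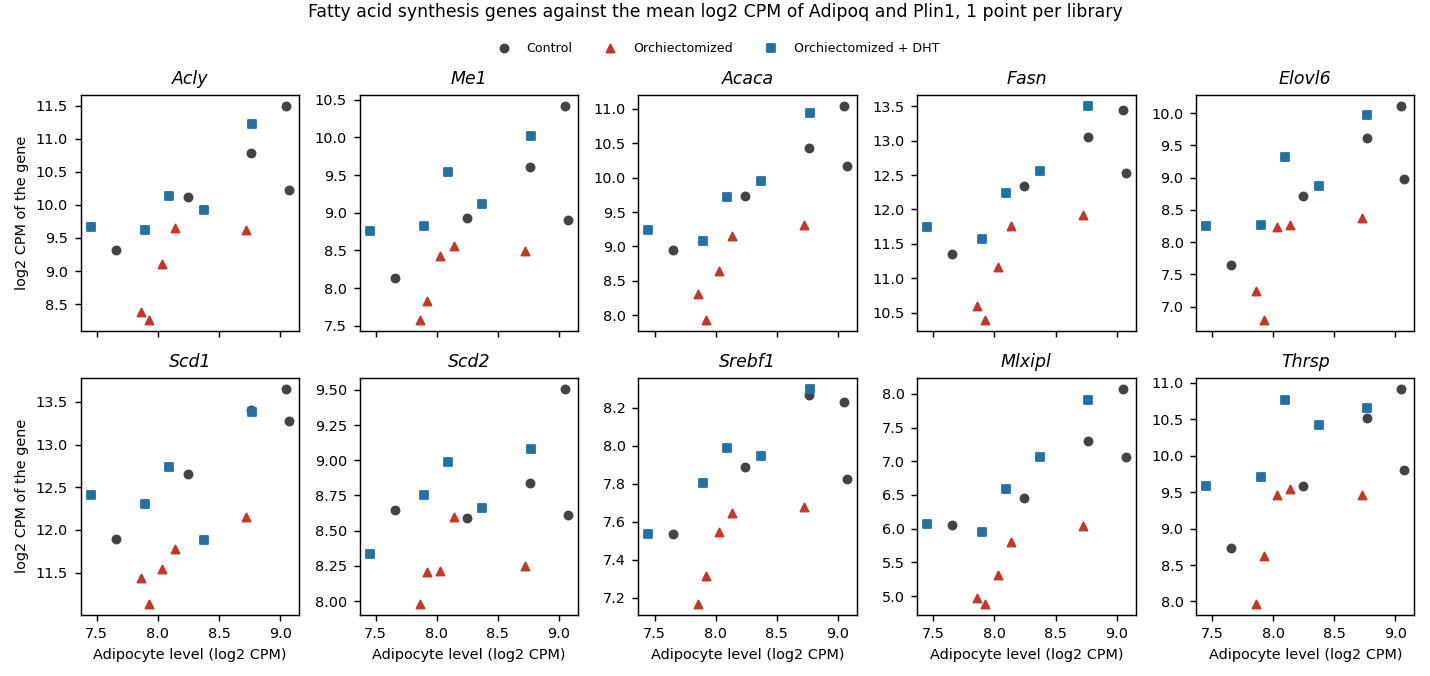
Log2 CPM of each of the 10 genes (vertical axes) against the adipocyte level, the mean log2 CPM of Adipoq and Plin1 (horizontal axes), with 1 point per library for the control (circles), orchiectomized (triangles) and DHT (squares) groups. At a given adipocyte level orchiectomized libraries tend to lie below the other libraries, most plainly for Mlxipl and Acaca, whereas for Thrsp they overlap the controls. For Scd1 they lie below the controls, and 1 DHT library (replicate 5) lies among the orchiectomized ones.

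Dividing each gene by the adipocyte level within a library needs no fitted slope, but takes every gene to change in proportion to that level. Fitted slopes ran from 0.37 (Scd2) to 1.36 (Elovl6). For Srebf1 the orchiectomized against control difference was −0.057 as a ratio and −0.29 in the fit at equal adipocyte level. The log2 ratio of Mlxipl was −1.46, −1.79, −0.98, −1.60 and −2.00 in control, −2.71, −3.04, −2.89, −2.69 and −2.34 in orchiectomized and −1.38, −1.94, −1.51, −0.86 and −1.31 in DHT libraries. Orchiectomized libraries lay below all others for this gene. For Scd1 the ratios were 4.64, 4.41, 4.60, 4.24 and 4.201, 3.52, 3.21, 3.57, 3.43 and 3.64 and 4.96, 4.41, 4.65, 4.61 and 3.51 in the same order, DHT replicate 5 alone falling in the orchiectomized range. Fasn had ratios of 4.29, 4.09, 4.40, 3.70 and 3.45, 3.14, 2.46, 2.74, 3.20 and 3.63 and 4.29, 3.67, 4.15, 4.74 and 4.18, control 5 and orchiectomized 5 being the libraries that overlapped. Mlxipl, Scd1 and Acaca had no overlap between control and orchiectomized libraries (0.177% of all genes in this direction), with differences of −1.17, −0.94 and −0.97 (each exact permutation P = 0.0079). The number of such genes was 6 without control 5 and 5 without orchiectomized 5. DHT and orchiectomized libraries did not overlap for 8 of 10 genes, all except Scd1 and Scd2, against 1.07% of all genes, and this became 2 with the 10 other adipocyte markers as reference. Thrsp was higher relative to the adipocyte level in DHT than in control libraries by 0.76 (exact permutation P = 0.0159), and none of the 10 genes was without overlap in that comparison, which 0.892% of all genes were in the higher and 0.0212% in the lower direction. Adjusted over all genes, no exact P of the 10 genes was below 0.365. With a smallest possible P of 0.0079, no gene could reach an adjusted P under 0.05 unless far more genes had that P. The adjusted values therefore say little about the 10 genes.

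Further genes of the pathway moved in part with these. Of 32 listed, 31 were tested, Scd3 having 15 counts at most. With orchiectomy 7 of 31 were lower at a P under 0.01 and none higher, against 1.13% and 2.08% of all genes. They included Pnpla3, a lipid droplet acyltransferase and lipase controlled by SREBP-1c and ChREBP (log2 fold change −1.68 ± 0.33, adjusted P = 0.131), Acacb, the mitochondrial acetyl-CoA carboxylase (−1.42 ± 0.41, adjusted P = 0.28), Insig1, which retains SREBPs in the endoplasmic reticulum (−0.82 ± 0.24, adjusted P = 0.285), and G6pdx, the first NADPH-producing enzyme of the pentose phosphate pathway (−0.82 ± 0.26, adjusted P = 0.297). Pnpla3 was at 101 to 242 CPM in control and 30.8 to 81.5 CPM in orchiectomized libraries, without overlap. By role the 7 were 3 of 5 supply genes, 1 of 4 synthesis genes, 1 of 9 elongation and desaturation genes and 2 of 13 regulators. None of the 31 had an adjusted P under 0.05 in this comparison.

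With DHT, 5 of the 31 were higher than in orchiectomized libraries at a P under 0.01 and none lower, against 2.46% and 7.27% of all genes. Nr1h2, the oxysterol receptor LXRβ, had a log2 fold change of 0.36 ± 0.095 and the only adjusted P under 0.05 (0.0422). It was at 97.6 to 119 CPM in orchiectomized and 128 to 147 CPM in DHT libraries, a small difference with no overlap. Pnpla3 had 1.17 ± 0.32 (adjusted P = 0.0516), Slc25a1, the mitochondrial citrate carrier, 1.29 ± 0.38 (adjusted P = 0.0672), and Pgd, of the pentose phosphate pathway, 1.06 ± 0.36 (adjusted P = 0.101). No pathway gene was called between DHT and control libraries, where Nr1h2 (0.24 ± 0.095, adjusted P = 0.355) and Idh1, the cytosolic isocitrate dehydrogenase (−0.42 ± 0.18, adjusted P = 0.375), had the smallest P values. At equal adipocyte level the calls were 3 lower with orchiectomy (0.645% of all genes), 10 higher with DHT (4.42% of all genes, and 9 of them at an adjusted P under 0.05 against 2.9%, Acacb with 0.00445) and none between DHT and control. The median log2 fold change over the 31 genes was −0.16, 0.16 and −0.018 in the 3 comparisons, closer to 0 than that of the 10 genes in each.

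The 10 genes varied together from library to library. After group means were subtracted, the 45 pairs had Pearson correlations of 0.590 to 0.991 (median 0.888) over 15 libraries, and 0.733 or more without Scd2. Control 3 was the highest control library for 9 of 10 genes and control 4 the lowest for 9, and DHT 4 was the highest DHT library for 9. Orchiectomized 2 and 3 shared the lowest values of their group (6 and 4 genes), and orchiectomized 4 and 5 the highest (6 and 4). The genes most like the mean of the standardized log2 CPM of the 10 genes over the 15 libraries were Agpat2 (r = 0.981), G6pdx (0.980), Tkt (0.977), Aacs (0.975), Acot11 (0.975) and Hk2 (0.974). Agpat2 makes phosphatidic acid for triglyceride, Tkt is the transketolase of the pentose phosphate pathway, and Hk2 is a hexokinase. With group means subtracted they were Hsd17b12 (0.987), Pygl (0.980), G6pdx (0.977), Agpat2 (0.976), Tkt (0.976) and Tmem120b (0.968). On the first measure Plin1 had r = 0.817 and Adipoq 0.444, and with group means subtracted they had 0.877 and 0.735. The 7 brown fat markers tested ran on the first measure from 0.114 (Dio2) to 0.922 (Otop1), with Ucp1 at 0.921, and the 10 other adipocyte markers from −0.187 (Retn) to 0.910 (Lipe), so the lists overlapped. All libraries share the tissue and its dissection, and these correlations are a description.

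Markers of fat gave few calls in the fit of the groups alone. Of 10 other adipocyte markers, 1 was called with orchiectomy, Lep, which encodes leptin and was lower (−1.85 ± 0.52, adjusted P = 0.268), against 1.13% of all genes called lower, and none was called with DHT. With orchiectomy 4 of the 10 were lower at a P under 0.05, against 4.59% of all genes. The median log2 fold change of the 10 was −0.65 with orchiectomy and 0.46 with DHT, where that of all genes was 0.037 and −0.022. Their mean level was 6.88 to 8.30 log2 CPM in control, 6.68 to 7.75 in orchiectomized and 6.87 to 7.81 in DHT libraries. Brown fat markers (7 of 8 tested, Zic1 having 3 counts at most) were at 6.51 to 8.07, 6.77 to 7.37 and 6.70 to 7.96. None of them was called with orchiectomy, Ucp1 having −0.98 ± 0.42 (adjusted P = 0.381) and Otop1 −1.15 ± 0.42 (adjusted P = 0.339). With DHT, 1 of 7 was called, Dio2, and it was lower (−0.97 ± 0.28, adjusted P = 0.0642), against 7.27% of all genes called lower. The other values went mostly the other way, with 5 of 7 above 0 and a median of 0.41, Ucp1 having 0.82 ± 0.42 (adjusted P = 0.274). At equal adipocyte level more fat markers were called with DHT. Of the 10 other adipocyte markers, 6 had a P under 0.05 for DHT against orchiectomized libraries and 2 were called higher, Cidec, a lipid droplet protein (log2 fold change 0.52 ± 0.13, adjusted P = 0.0311), and Lipe, the hormone-sensitive lipase (0.73 ± 0.16, adjusted P = 0.0186), against 4.42% of all genes. Of the 7 brown fat markers, Ucp1 (0.74 ± 0.22, adjusted P = 0.0558) and Otop1 (0.68 ± 0.19, adjusted P = 0.0446) were called higher and Dio2 lower (−0.99 ± 0.27, adjusted P = 0.0362). The higher level with DHT in this fit was thus not particular to the lipogenic genes. Between DHT and control libraries the group fit called Dio2 alone, which was lower (−1.40 ± 0.29, adjusted P = 0.0548), against 2.01% of all genes. At equal adipocyte level Cidec (0.57 ± 0.15, adjusted P = 0.145) and Lipe (0.56 ± 0.18, adjusted P = 0.24) were called higher there, against 1.44% of all genes. Dio2 was again called lower (−1.23 ± 0.28, adjusted P = 0.0951), against 2.39%. With the brown fat level added to the fit at equal adipocyte level, 5 of the 10 lipogenic genes were called lower with orchiectomy and 9 higher with DHT, where 232 and 715 of all genes were called in either direction.

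Lymphocyte markers (4 of 5 tested) were all called higher with orchiectomy and lower with DHT, as 2.08% and 7.27% of all genes were, at 0.91 to 1.81 log2 CPM in control, 1.19 to 4.64 in orchiectomized and −0.061 to 1.62 in DHT libraries. Smooth muscle markers, at 10.30 to 10.92, 9.62 to 10.69 and 10.61 to 11.02, gave no call in any comparison. All 6 had a log2 fold change above 0 for DHT against orchiectomized libraries (median 0.43), 5 of them at a P under 0.05, against 7.32% of all genes. With DHT, 2 of 4 fibroblast, 2 of 4 endothelial and 2 of 4 macrophage markers were lower than in orchiectomized libraries, and 2 of 4 skeletal muscle markers, Acta1 and Mylpf, were higher, against 7.27% of all genes called lower and 2.46% called higher. Between DHT and control libraries, 2 endothelial markers and 1 fibroblast marker were called lower (2.01% of all genes) and no macrophage or skeletal muscle marker was called. Mylpf was also lower with orchiectomy (−2.28 ± 0.70, adjusted P = 0.29). Mean levels in control, orchiectomized and DHT libraries were 7.60 to 8.29, 7.64 to 8.46 and 6.66 to 7.80 for fibroblasts, 6.95 to 7.59, 7.24 to 7.87 and 6.66 to 7.09 for endothelium, 4.08 to 5.76, 4.93 to 5.73 and 3.84 to 5.02 for macrophages, and 2.60 to 6.02, 0.89 to 4.48 and 3.50 to 5.99 for skeletal muscle. Clock genes, which cycle over the day, were called as follows: 6 of 12 were called higher and 1 lower with orchiectomy (2.08% and 1.13% of all genes), and 5 higher and 1 lower in DHT than in control libraries (1.52% and 2.01%). Between DHT and orchiectomized libraries 1 of 12 was called, Hlf, which was lower (−0.67 ± 0.20, adjusted P = 0.0637), against 7.27% of all genes. Dbp, a clock output gene, was at 8.99 ± 5.37 CPM in control, 41.3 ± 12.3 CPM in orchiectomized and 31.4 ± 7.77 CPM in DHT libraries, and Arntl, a core clock gene, at 50.4 ± 6.66, 30.2 ± 5.10 and 36.0 ± 3.50 CPM. The part of these cell types and of time of day in the differences of the 10 genes was not tested.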

How the data were processed

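Poly(A)-selected RNA of whole aortas was sequenced by the authors, who deposited raw counts of reads per gene symbol for 15 libraries, 5 per group, with no normalization. The submitters' processing notes name STAR, Cufflinks, DESeq2 and the build mm10, without their roles or versions; the counting program, the annotation and the use of strand are not given in the sources used here. Group and replicate number came from the titles. Per library, 6.26% to 14.4% of reads were assigned to no gene and 1.34% to 1.97% to several, and these 2 entries were left out. Gene counts ranged from 8268957 to 13816864 per library, and the 10 genes had 331 counts or more in every library, so the spread between libraries, not counting, limited precision.

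The quasi-likelihood pipeline of edgeR 4.0.16 (R 4.3.3) was used on these counts. Low genes were removed with filterByExpr at a minimum count of 10 and a minimum total of 15, libraries were scaled by TMM, and genes were tested in 1 fit of 3 groups over all libraries. Calls used an unadjusted P under 0.01, the study's threshold, and Benjamini-Hochberg adjustment ran over all 14121 genes tested. A further fit added the centered mean log2 CPM (prior count 3) of Adipoq and Plin1. Within-library log2 ratios to that mean were set against each other by two-sided exact permutation over 252 splits, with a smallest possible P of 0.0079. The biological coefficient of variation was 0.297. Intervals are 95% intervals with 12 residual degrees of freedom. How large a difference in the lipogenic genes these fits could have detected was not tested.

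Members and lists were chosen with earlier results of these data known. All 10 members are named. Of the other pathway genes and the marker lists, the 2 to 4 with the smallest P in a comparison are named, and further ones (Otop1, Ucp1, Adipoq, Plin1, Dbp, Arntl, Mylpf and Acta1 among them) only to give values beside a result. The 6 most similar genes were ranked by Pearson correlation. Alternatives were DESeq2 1.42.0, limma 3.58.1 (voom with quality weights), RLE size factors, other filters, references and thresholds, a fit of only the groups compared, a replicate block, and leaving out each library. Of 15 correlations between same-numbered libraries of different groups, 5 were above 0.1, and whether such libraries shared a batch was not tested.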

Additional observations from a re-analysis of the deposited data

Results flagged for a closer look

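Of 66 groups of 5 libraries, 2 held a library far from the others by Dixon's test, where chance gives about 1 in 20. Acly was at 2400.4 CPM in DHT replicate 4, with the other 4 DHT libraries at 787 to 1119 CPM. Scd2 was at 727 CPM in control replicate 3, with the other 4 control libraries at 385 to 457 CPM. Without DHT replicate 4 the log2 fold change of Acly between DHT and orchiectomized libraries was 0.74, and without control replicate 3 that of Scd2 between orchiectomized and control libraries was −0.44, and neither passed P under 0.01 in those fits.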

How the results depend on the processing

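With the threshold set on the adjusted P instead of P under 0.01, the genes called went from 8 to 0 for orchiectomized against control, from 3 to 0 for DHT against orchiectomized and from 5 to 0 for orchiectomized against control at equal adipocyte level. Voom with quality weights gave 4, 0 and 3 in these comparisons, and 1 (Thrsp) instead of 0 for DHT against control at equal adipocyte level. A block on the replicate number gave 5, 1 and 3. The labels do not say what the numbers stand for. Same-number correlations ran from −0.466 to 0.463, and 3 of 15 libraries were closest to their own number. For DHT against orchiectomized, DESeq2 called 10, a filter keeping all genes with at least 1 count 5, and a fit of only those groups 6. At equal adipocyte level for orchiectomized against control, the 10 other adipocyte markers gave 2, Adipoq alone 9 and Plin1 alone 2; with the 10 other markers DHT against orchiectomized gave 6 calls instead of 10 and 2 ratios without overlap instead of 8. Leaving out 1 library gave 2 to 10 calls for orchiectomized against control, 0 to 7 for DHT against orchiectomized and 0 for DHT against control; at equal adipocyte level 3 to 8, 9 to 10 and 0; and 3 to 6, 8 to 9 and 0 to 1 ratios without overlap. The cause of these changes was not tested. Of 1920 alternative values of single genes, 1694 kept direction and side of the threshold, 135 lost and 51 gained it, and 40 changed direction.

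Those changes of direction were in DHT against control, apart from ratios of Scd2 and Srebf1 for orchiectomized against control. Not all were in values near 0: with all libraries Acly had a log2 fold change of −0.32 for DHT against control. Without 1 library, the log2 fold change of DHT against control ran from −0.73 to 0.038 for Acly, −0.32 to 0.34 for Me1, −0.70 to 0.015 for Acaca, −0.63 to 0.055 for Fasn, −0.49 to 0.18 for Elovl6, −0.19 to 0.10 for Scd2, −0.15 to 0.046 for Srebf1, −0.68 to 0.092 for Mlxipl and −0.0013 to 0.50 for Thrsp. At equal adipocyte level it ran from −0.14 to 0.24 for Scd1 and −0.00097 to 0.17 for Scd2, and the log2 ratio to the adipocyte level from −0.0068 to 0.32 for Acly and −0.13 to 0.24 for Scd1. For orchiectomized against control that ratio ran from −0.35 to 0.011 for Scd2 and −0.22 to 0.066 for Srebf1. With the 10 other markers the DHT against control ratio was −0.042 for Acaca, −0.037 for Acly, −0.034 for Mlxipl and −0.19 for Scd1, and the orchiectomized against control ratio 0.018 for Srebf1. Scd1 for DHT against control at equal adipocyte level was −0.15 with those markers, −0.093 with Adipoq alone, −0.045 with the brown fat level added and −0.0041 with voom.

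Over all genes tested, counts at P under 0.01 were 454, 1373 and 498 in the 3 comparisons and 0, 666 and 37 by adjusted P. Orchiectomized against control gave 752 with all genes with at least 1 count, 297 with only those groups and 285 with the block, and DHT against control 992 with voom. At equal adipocyte level counts were 246, 1753 and 541. An offset gave 477, 492 and 131, Adipoq alone 655 and Plin1 alone 146 in the first, voom 417 in the first and 1870 in the last, the brown fat level 715 in the second and 276 in the last, and the adjusted P 0 and 38 in the first and last.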

Other observations

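Pdk4, which restrains pyruvate oxidation in fasting, when lipogenesis is low, was not called with orchiectomy (log2 fold change −0.89 ± 0.46, edgeR adjusted P = 0.448).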
